A study of Mus musculus with 38 samples.

Results

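The refeeding response of floxed control liver was measured as the difference between 3 refed and 3 fasted mice in which both the insulin receptor gene and the FoxO1 gene are flanked by loxP sites (IR/FoxO1 floxed). Its members are the samples whose titles begin with IRF.fl_Refed or IRF.fl_Fast, which are 6 of the 38 samples in the series. All were males aged 11 to 12 weeks of mixed descent from FVB/N and C57Bl/6 mice, described as controls, and whether any of them carried a Cre transgene is not given in the labels. The fasted mice are described both as fasted overnight and as fasted for 24 h, and the refed mice had food for 6 h after the fast. Liver RNA of each mouse was hybridised to 1 channel of a two-colour Agilent array, and every value below is the deposited log2 intensity of that channel. The series also holds 8 fasted or refed IR floxed mice, in which the insulin receptor gene alone is floxed, and 7 fasted or refed mice of each knockout. In LIRKO the receptor gene, and in LIRFKO the receptor gene and Foxo1, are deleted by Cre under the albumin promoter, which is active in hepatocytes. These groups had the same feeding states, sex, age and background, and they serve here only for comparison.

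Liver switches between releasing and storing fuel as food comes and goes. In the fast, glucagon, glucocorticoids and fatty acids drive glucose production, fatty acid oxidation and the secretion of hormones such as FGF21. Insulin released after a meal acts through Akt, which keeps the transcription factor FoxO1 out of the nucleus and promotes the processing of SREBP, the factor that switches on fatty acid and cholesterol synthesis. Feeding also brings amino acids and mTORC1 activity, with more ribosome production, more secretory protein synthesis and less autophagy.

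The fasted mice are called Fast_516, Fast_523 and Fast_533 and the refed mice Refed_467, Refed_472 and Refed_473 after their titles, and values are listed in that order throughout. Insr, the receptor gene, stood at 8.27, 6.90 and 8.14 log2 in the fasted livers and at 7.73, 7.48 and 7.35 in the refed livers. Foxo1 stood at 10.57, 6.77 and 10.17 in the fasted and at 9.25, 9.27 and 9.68 in the refed livers. The library labelled IRF.fl_Fast_523 was thus the lowest of the 6 in both genes. In the 3 fasted LIRFKO livers Insr lay between 6.45 and 6.81 and Foxo1 between 6.81 and 7.12, so that Fast_523 lay near those livers and apart from its own group. Across all genes, Fast_523 correlated at 0.995 with 1 fasted LIRFKO library (IRF.KO_Fast_525, the same dye) and at 0.988 and 0.992 with the other fasted LIRFKO libraries, against 0.988 and 0.991 with its own group's Fast_516 and Fast_533. Counts over the gene lists are therefore given with and without Fast_523. With it, the refed minus fasted difference in Foxo1 was 0.42 log2 (adjusted p = 0.819), and without it Foxo1 fell by 1.01 (adjusted p = 0.0162).

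Genes of the circadian clock divided the mice in another way. Arntl, which encodes the clock activator BMAL1, stood at 8.65, 6.02 and 6.62 in the fasted and at 8.84, 6.93 and 6.58 in the refed livers. Dbp, an output gene of the clock, ran the opposite way at 8.12, 13.48 and 12.83 against 8.74, 12.09 and 12.17. Fast_516 and Refed_467 thus had high Arntl and low Dbp, and the other 4 livers had the reverse, with no overlap between the 2 sets of livers in either gene. The hours at which livers were taken are not given in the labels, and the part of the clock in the results below was not tested. Both feeding states held 1 such liver. Among the 6 libraries, Refed_467 was also the most extreme of the refed in many responding genes: it held the highest refed value in 265 of the 454 genes that rose and the lowest refed value in 177 of the 341 that fell.

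Of 22479 genes tested with limma over the 37 samples that could be assigned to a group, 795 changed on refeeding at an adjusted p under 0.05, which is 3.54% of them. Genes that rose numbered 454 (2.02%) and genes that fell 341 (1.52%). These shares are the background for each list count below. The median difference over all genes was -0.0026 log2, and 105 of the rises and 91 of the falls exceeded 1 log2 unit. In 758 of the 795 the refed and fasted libraries did not overlap, against 17.5% of all genes. The calls came from the same values, so a lack of overlap in a called gene is not separate support for its call, here or below. The 12 largest rises and 12 largest falls named below were taken only from genes without overlap. For those genes the lack of overlap was set by that choice. Fitted differences allow for dye and for the array, so they are not exactly the differences between group means. Without Fast_523, 460 genes changed (2.05%), 240 rising (1.07%) and 220 falling (0.979%). Of these, 395 were among the 795, a share of 49.7% of the larger list and 85.9% of the smaller, and all 795 kept their direction. Leaving out the other mice in turn gave 337 (without Fast_516), 484 (Fast_533), 347 (Refed_467), 436 (Refed_472) and 439 (Refed_473) genes, and 176 were called in all 6 such fits. Slide and feeding overlapped in part: 2 refed mice lay on slide 185, 1 fasted mouse on slide 188, and the others on slide 187, where Fast_523 and Refed_473 shared an array. Dye was unbalanced as well: among the fasted mice Fast_516 alone was labelled with Cy5, and among the refed mice Refed_467 alone with Cy3. These are also the livers set apart by the clock genes, and without the dye term 504 genes changed. With slide as a block 2.52% of genes changed, 319 rising (1.42%) and 247 falling (1.1%).

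**Figure D1:**
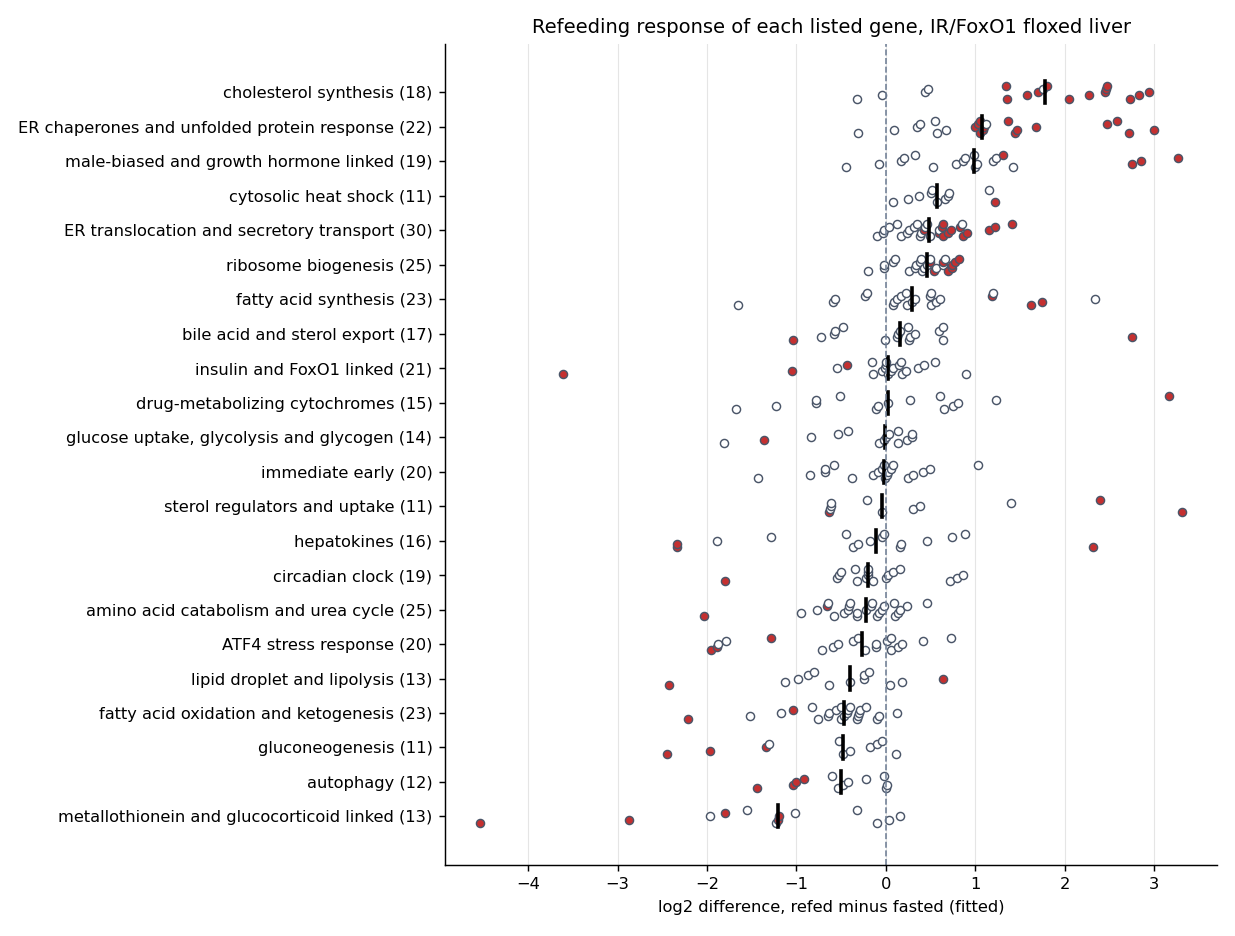
Fitted log2 difference between refed and fasted IR/FoxO1 floxed liver for every measured gene of 22 pathway lists, with the number measured in brackets. Each point is a gene, filled red where its adjusted p was under 0.05, black bars are list medians and the dashed line is the median of all genes (-0.0026). Cholesterol synthesis has the highest median at 1.78, and metallothionein and glucocorticoid linked genes the lowest at -1.2.

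Igfbp1 and 3 of 11 measured gluconeogenesis genes fell on refeeding. Igfbp1, an insulin-repressed FoxO1 target that encodes a binding protein for insulin-like growth factors, stood at 14.77, 12.79 and 12.48 log2 in the fasted and at 10.25, 10.42 and 10.24 in the refed livers. It fell by 3.61 ± 0.78 log2 (SE, adjusted p = 0.0079), a 12.2-fold drop. The refed values were nearly level, and Fast_516 stood well above the other fasted livers. Pck1, the gene for the cytosolic enzyme that commits oxaloacetate to glucose production, stood at 15.27, 15.69 and 15.70 against 11.25, 13.40 and 14.08 and fell by 2.44 ± 0.48 (adjusted p = 0.00321). G6pc, the catalytic subunit of the phosphatase that releases free glucose, stood at 13.32, 11.81 and 11.93 against 10.81, 10.52 and 10.31 and fell by 1.97 ± 0.48 (adjusted p = 0.0183). Klf15, a transcription factor of amino acid use in the fast, fell by 1.34 ± 0.28 (adjusted p = 0.00558). The groups did not overlap in any of these genes, although in Pck1 most of the distance came from Refed_467.

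Pck1, G6pc and Klf15 were the 3 of the 11 measured gluconeogenesis genes that fell (1.52% of all genes fell), 0 rose, and the list had a median of -0.482 against -0.0026 for all genes. The count was again 3 without Fast_523 and between 1 and 3 with another mouse left out. Other members did not pass: Pcx differed by 0.11 ± 0.15, Fbp1 by -0.05 ± 0.26 and Slc37a4, the glucose phosphate carrier, by -0.10 ± 0.24. In Fbp1, Fast_523 and Fast_533 were at 15.93 and 15.81, near the highest value on the arrays (16), which limits what could be seen. Ppargc1a, a coactivator of the pathway, stood at 9.46, 8.92 and 8.40 against 7.16, 7.89 and 7.92, without overlap, but its difference of -1.31 ± 0.43 did not pass (adjusted p = 0.103). Irs2, the insulin receptor substrate that FoxO1 induces, was at 10.18, 10.20 and 9.98 against 8.64, 9.65 and 9.29 and fell by 1.05 ± 0.30 (adjusted p = 0.049). Pdk4, which restrains pyruvate oxidation and is another FoxO1 target, overlapped between the groups and differed by -0.55 ± 0.35 (adjusted p = 0.543). Of the 21 insulin and FoxO1 linked genes, 3 fell and 0 rose, with a list median of 0.0243, and without Fast_523, 2 fell (Igfbp1 and Foxo1). Of all genes 1.52% fell, and 0.979% without Fast_523. Calls were lost by Igfbp1 without Fast_516 or Refed_473 (adjusted p = 0.058 and 0.0517), Pck1 without Refed_467 (0.0597), Klf15 without Fast_516 (0.0601) and G6pc without Fast_516, Refed_472 or Refed_473 (0.167, 0.0799 and 0.0905). Irs2 lost its call whichever mouse was left out, with adjusted p from 0.0545 (Refed_472) to 0.318 (Refed_467).

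Among liver hormones, 2 of 16 measured fell and 1 rose, and without Fast_523, 1 fell and 2 rose. Of all genes 1.52% fell and 2.02% rose. Angptl4, an inhibitor of lipoprotein lipase, stood at 14.29, 13.45 and 13.67 in the fasted and at 10.28, 11.90 and 11.99 in the refed livers, and it fell by 2.34 ± 0.40 (adjusted p = 0.00125). Fgf21, the fasting hormone gene, stood at 9.32, 10.46 and 9.22 against 6.67, 7.48 and 7.53 and fell by 2.33 ± 0.58 (adjusted p = 0.0198). Angptl8, which is induced by food, ran the other way, at 10.12, 11.21 and 10.84 against 13.52, 13.33 and 12.84, a rise of 2.32 ± 0.56 (adjusted p = 0.0184). All 3 genes were without overlap. Fgf21 was highest in Fast_523 and lost its call without it (adjusted p = 0.186) and without Fast_516, Refed_467 or Refed_473 (0.0654, 0.0974 and 0.0868). Angptl8 lost its call without Fast_516, Fast_533, Refed_467 or Refed_472 (adjusted p = 0.13, 0.0507, 0.102 and 0.0636). Igf1, the growth factor gene, was between 12.94 and 13.26 in the fasted and between 13.67 and 13.8 in the refed livers, a difference of 0.89 ± 0.28 that did not pass (adjusted p = 0.0891).

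The largest fall of all named genes was in a metallothionein, a small metal-binding protein whose gene responds to zinc and to glucocorticoids. Mt2 stood at 15.04, 15.57 and 15.15 log2 in the fasted and at 10.56, 10.59 and 11.16 in the refed livers. It fell by 4.54 ± 0.42 (adjusted p = 4.93e-07), a 23.2-fold drop, and fell by 4.19 without Fast_523 (adjusted p = 4.87e-05). Mt1 stood at 15.56, 16 and 15.91 against 12.07, 13.65 and 13.57 and fell by 2.87 ± 0.55 (adjusted p = 0.00284). Fast_523 and Fast_533 were at the top of the measured range in Mt1, so its fall may be understated. Klf9, Fkbp5 and Per1, which glucocorticoids induce, fell by 1.19 ± 0.22 (adjusted p = 0.00189), 1.2 ± 0.27 (0.00993) and 1.80 ± 0.43 (0.0171). These made 5 of the 13 measured metallothionein and glucocorticoid linked genes (1.52% of all genes fell), with none rising, and the list had a median of -1.2 (-1.54 without Fast_523, with 4 falls). Tsc22d3, another glucocorticoid target, overlapped between the groups, at 12.16, 10.88 and 11.31 against 11.09, 11.00 and 11.56 (difference -0.10 ± 0.39). Per1 belongs to the clock as well, stood at 10.36, 10.42 and 10.21 against 7.44, 9.12 and 9.54, and lost its call without Refed_467 (adjusted p = 0.208) or any of the fasted mice (0.0553 to 0.0608). Fkbp5 lost it without Fast_516 or Refed_467 (0.0729 and 0.0964) and with slide as a block (0.0511).

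**Figure D2:**
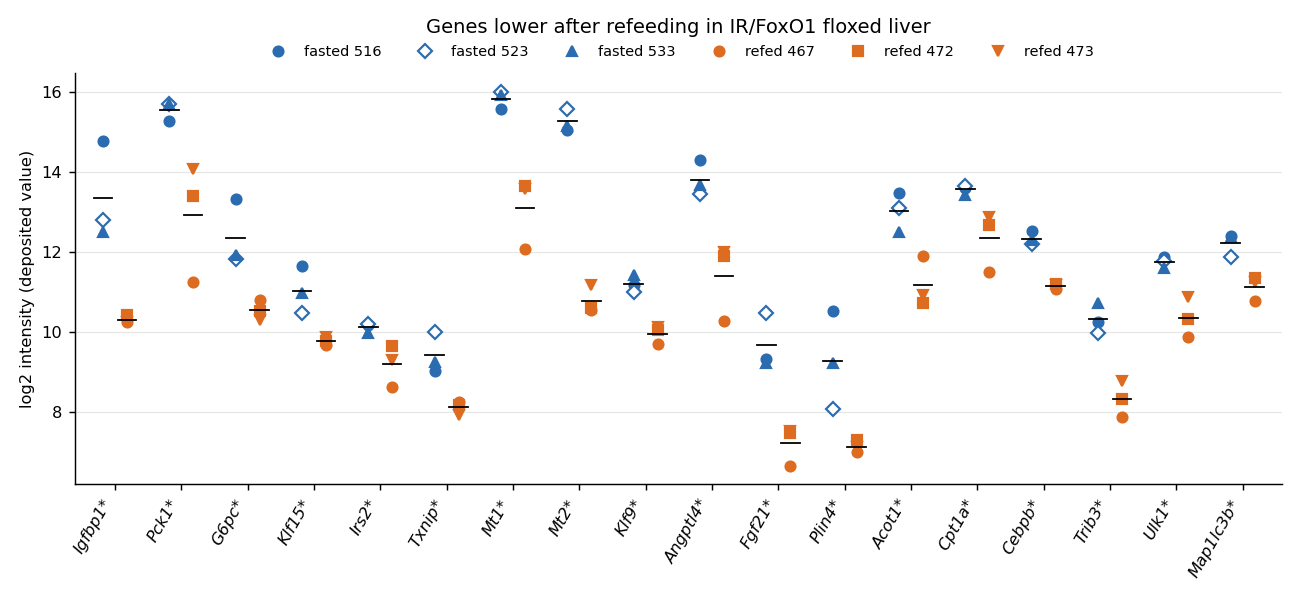
Deposited log2 intensity of 18 genes in each fasted (blue) and refed (orange) IR/FoxO1 floxed liver, with black bars for group means and an asterisk where the adjusted p was under 0.05. Open diamonds mark Fast_523. Fasted values lie above refed values in all 18, and Refed_467 is the lowest refed point in Pck1 (11.25), Mt1 (12.07) and Angptl4 (10.28).

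Of 12 measured autophagy genes 4 fell on refeeding, against 1.52% of all genes. Ulk1, the kinase that starts autophagosome formation, stood at 11.86, 11.77 and 11.61 in the fasted and at 9.88, 10.32 and 10.87 in the refed livers and fell by 1.44 ± 0.21 (adjusted p = 0.000274). Map1lc3b, the gene of the membrane-bound marker LC3B, stood at 12.40, 11.86 and 12.38 against 10.78, 11.34 and 11.24 and fell by 1.0 ± 0.19 (adjusted p = 0.00311). The groups were apart in both. Atg2a, a lipid transfer protein of the growing membrane, fell by 0.92 ± 0.17 (adjusted p = 0.00246) and Gabarapl1, an LC3 relative, by 1.04 ± 0.23 (0.00886). The number was also 4 without Fast_523, with none rising and a list median of -0.505. Becn1, Tfeb and Sqstm1 differed by -0.02 ± 0.15, 0.01 ± 0.15 and -0.00 ± 0.25, and the list also holds Tat, an enzyme of amino acid breakdown, at -0.42 ± 0.38. Gabarapl1 lost its call without Fast_533 or Refed_467 (adjusted p = 0.0591 and 0.0923).

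Of 20 genes linked to ATF4, the transcription factor of amino acid and stress responses, 3 fell and 0 rose, with and without Fast_523. Of all genes 1.52% fell, and 0.979% without Fast_523. Trib3, a pseudokinase that binds Akt, stood at 10.25, 9.98 and 10.73 against 7.87, 8.32 and 8.78 and fell by 1.95 ± 0.38 (adjusted p = 0.00321). Cebpb, a liver transcription factor of the fast and of inflammation, stood at 12.51, 12.18 and 12.29 against 11.07, 11.19 and 11.18 and fell by 1.29 ± 0.22 (adjusted p = 0.00133). Vldlr, a lipoprotein receptor, fell by 1.89 ± 0.50 (adjusted p = 0.0319), a call lost without any 1 mouse but Fast_523 (0.0659 to 0.159) and with slide as a block (0.0602). None of the 3 overlapped. Amino acid synthesis genes of the list did not pass: Asns, asparagine synthetase, was at 11.25, 12.34 and 8.28 against 9.85, 7.97 and 9.15 (difference -1.79 ± 0.77, adjusted p = 0.258), and Psat1 and Phgdh differed by -0.31 ± 0.32 and -0.11 ± 0.13.

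Of 23 measured fatty acid oxidation genes 2 fell on refeeding (1.52% of all genes fell), and 0 without Fast_523. The list median was -0.468, against -0.0026 for all genes, and 22 members had a negative difference. Acot1, a cytosolic acyl-CoA thioesterase, was at 13.46, 13.10 and 12.49 against 11.89, 10.71 and 10.91 and fell by 2.21 ± 0.52 (adjusted p = 0.0141). Cpt1a, which admits fatty acids to mitochondria, was at 13.60, 13.65 and 13.43 against 11.49, 12.66 and 12.86 and fell by 1.04 ± 0.29 (adjusted p = 0.0455). The groups were apart in both, yet Acot1 lost its call without Fast_516, Fast_523, Refed_472 or Refed_473 (adjusted p from 0.0577 to 0.114). Cpt1a lost it whichever mouse was left out (adjusted p from 0.0656 to 0.32) and with slide as a block (0.141). Ppara, the nuclear receptor of the pathway, was at 12.15, 12.95 and 12.84 against 11.52, 11.57 and 11.92 (difference -0.83 ± 0.27, adjusted p = 0.0903).

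Of 13 measured genes of lipid droplets and lipolysis 1 fell and 1 rose, and without Fast_523, 1 fell and 0 rose. Of all genes 1.52% fell and 2.02% rose. Plin4, a lipid droplet coat protein, stood at 10.52, 8.08 and 9.24 in the fasted and at 7.00, 7.30 and 7.12 in the refed livers and fell by 2.43 ± 0.37 (adjusted p = 0.000433). Without Fast_523, the lowest of the fasted, it fell by 3.06. Abhd5, the coactivator of adipose triglyceride lipase, rose by 0.64 ± 0.14 (adjusted p = 0.00665, and 0.0524 without Fast_523 or 0.0644 without Refed_467). Plin2, the common droplet coat gene, was at 13.69, 14.53 and 13.25 against 13.18, 12.72 and 12.99, and its difference of -0.98 ± 0.34 did not pass (adjusted p = 0.127). Among 25 genes of amino acid breakdown and the urea cycle 2 fell (1.52% of all genes fell), and 0 without Fast_523. These were Got1, the aspartate aminotransferase of the cytosol, by 2.04 ± 0.55 (adjusted p = 0.0339) and Cbs, which makes cystathionine, by 0.66 ± 0.17 (0.0257). Got1 stood at 14.62, 14.23 and 14.37 against 11.34, 13.53 and 13.25, with Refed_467 far below the rest. Got1 lost its call without Refed_467 (adjusted p = 0.342) or any fasted mouse (0.09 to 0.114), and Cbs without any mouse but Fast_533 (0.0644 to 0.234).

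Cholesterol synthesis genes rose together. Of 18 measured, 13 rose and 0 fell, against 2.02% of all genes rising, with a median difference of 1.78 log2. Mvd, the last decarboxylase of the mevalonate pathway, stood at 6.37, 9.25 and 6.75 in the fasted and at 9.88, 10.96 and 10.68 in the refed livers and rose by 2.84 ± 0.49 (adjusted p = 0.00125). Sqle, squalene epoxidase, stood at 7.74, 11.94 and 8.69 against 11.79, 12.74 and 12.77 and rose by 2.94 ± 0.78 (adjusted p = 0.0319). Fdps, the farnesyl diphosphate synthase, stood at 9.33, 13.46 and 10.69 against 13.38, 13.95 and 13.91 and rose by 2.48 ± 0.67 (adjusted p = 0.0355). In each, Fast_523 stood far above the other fasted livers, and in Sqle and Fdps it exceeded Refed_467. The same held over the list, whose mean level was 11.2 log2 in Fast_523 against 9.28 in the lowest fasted liver and 11.2 in the lowest refed liver.

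Hmgcs1, the HMG-CoA synthase of the mevalonate pathway, stood at 10.57, 13.14 and 10.46 against 13.30, 14.13 and 14.18 and rose by 2.45 ± 0.57 (adjusted p = 0.0136). Idi1, the isomerase of isopentenyl diphosphate, rose by 2.46 ± 0.64 (adjusted p = 0.0272), Lss, which closes the sterol rings, by 2.27 ± 0.41 (0.00187), Cyp51, the lanosterol demethylase, by 2.05 ± 0.51 (0.0215) and Dhcr7, the last reductase, by 1.58 ± 0.30 (0.00236). Without Fast_523 the median rise was 2.56 and 14 of 18 rose, Nsdhl, a dehydrogenase of the late pathway, among them. Mvd rose by 3.75, Sqle by 4.11 and Fdps by 3.60 in that fit. With slide as a block 9 of the 18 rose, where Fdft1, Sqle, Fdps and Msmo1 lost their calls at adjusted p from 0.0761 to 0.0892, and the median stayed at 1.80. Within slide 187, where 1 refed liver met Fast_516 and Fast_523, the median was 1.79, and 3.12 against Fast_516 alone. Leaving out another mouse left 4 (without Fast_516, Refed_472 or Refed_473), 5 (Fast_533) or 10 (Refed_467) members called, with no fall. Ggps1 and Tm7sf2 were the 2 members with a negative difference.

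Of 11 regulators and carriers of sterols, 2 rose and 1 fell, the same numbers as without Fast_523. Of all genes 2.02% rose and 1.52% fell. Aacs, which makes acetoacetyl-CoA for sterol and fatty acid synthesis, stood at 7.25, 9.69 and 8.94 against 11.75, 12.81 and 11.84 and rose by 3.32 ± 0.59 (adjusted p = 0.00162). Insig1, the sterol-sensing anchor that retains SREBP in the endoplasmic reticulum and is itself an SREBP target, stood at 6.98, 8.91 and 7.21 against 10.09, 9.85 and 9.97 and rose by 2.39 ± 0.53 (adjusted p = 0.00873, and 0.0676 or 0.0624 without Fast_516 or Refed_467). The groups were apart in both. Insig2, the form that insulin represses, was spread widely in the fasted livers, at 13.48, 10.07 and 11.70 against 11.62, 11.14 and 11.26 (difference -0.61 ± 0.65). Srebf2, which encodes the SREBP of cholesterol synthesis, differed by 0.30 ± 0.19 (adjusted p = 0.538), and Npc1, a lysosomal cholesterol exporter, fell by 0.64 ± 0.17 (0.0374), a call lost without any mouse but Refed_473 (0.0598 to 0.193) and with slide as a block (0.0533).

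**Figure D3:**
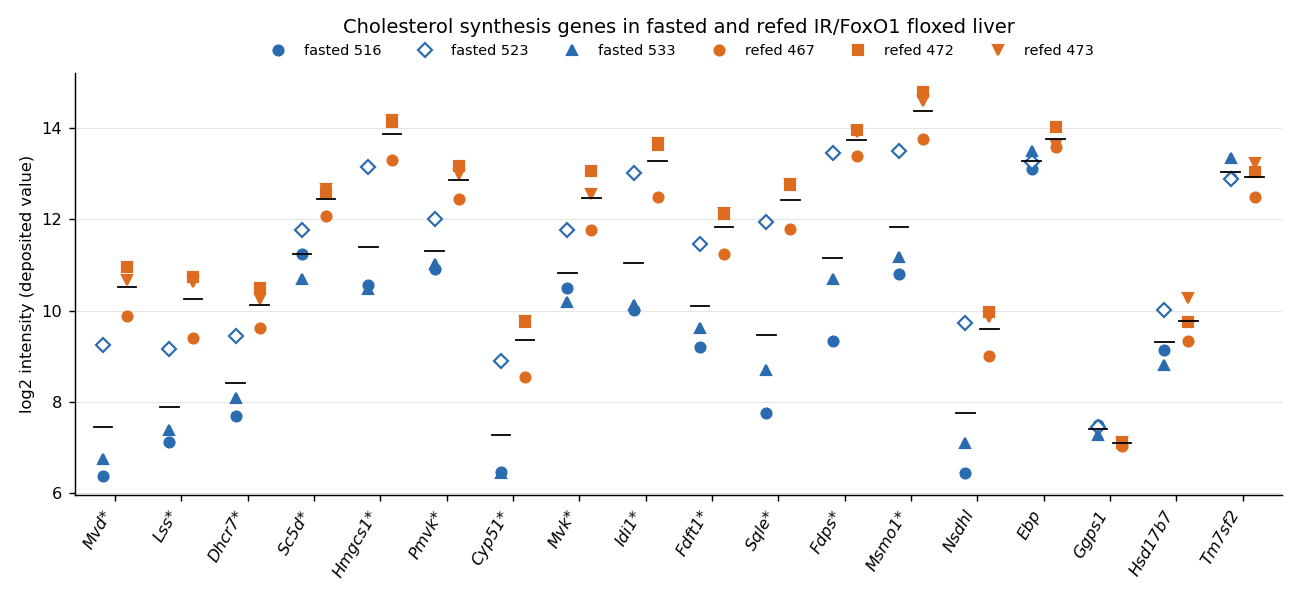
Deposited log2 intensity of the 18 measured cholesterol synthesis genes in each fasted (blue) and refed (orange) IR/FoxO1 floxed liver, ordered by p, with black bars for group means and asterisks for an adjusted p under 0.05. Open diamonds mark Fast_523, which lies above both other fasted livers in genes such as Mvd (9.25), Sqle (11.94) and Fdps (13.46).

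Of 23 measured fatty acid synthesis genes 3 rose and 0 fell, with a median of 0.297, and 4 rose without Fast_523 (2.02% and 1.07% of all genes rose). Acly, which splits citrate to acetyl-CoA, stood at 11.10, 11.71 and 11.08 in the fasted and at 12.45, 12.75 and 12.52 in the refed livers and rose by 1.18 ± 0.18 (adjusted p = 0.000433). Fasn, fatty acid synthase, stood at 6.59, 7.99 and 6.64 against 9.06, 8.86 and 8.83 and rose by 1.63 ± 0.31 (adjusted p = 0.00269). Both were without overlap and again highest of the fasted in Fast_523. Mid1ip1, a partner of acetyl-CoA carboxylase, rose by 1.75 ± 0.44 (adjusted p = 0.0226), a call lost without Fast_516, Fast_533, Refed_467 or Refed_472 (0.066 to 0.259) and with slide as a block (0.091). Elovl6, a fatty acid elongase, did not pass (1.2 ± 0.39, adjusted p = 0.0881) but did without Fast_523 (1.82, adjusted p = 0.0155). Srebf1, the gene for the lipogenic SREBP, was at 5.65, 7.01 and 6.46 against 7.26, 6.84 and 6.76 (difference 0.51 ± 0.24, adjusted p = 0.323). Thrsp, a lipogenic protein induced by food, stood at 8.18, 10.67 and 10.80 against 11.78, 12.06 and 12.78, and its difference of 2.34 ± 0.86 did not pass (adjusted p = 0.159), with Fast_516 low.

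In the list of 14 genes for glucose uptake, glycolysis and glycogen, 1 changed, with and without Fast_523 (3.54% and 2.05% of all genes changed). Txnip, which restrains glucose uptake, stood at 9.02, 10.01 and 9.25 against 8.24, 8.18 and 7.93 and fell by 1.36 ± 0.24 (adjusted p = 0.00133, and 0.0321 without Fast_523). Pklr, the liver pyruvate kinase, differed by 0.24 ± 0.25 (adjusted p = 0.797) and overlapped between the groups.

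Chaperones of the endoplasmic reticulum, where secreted proteins fold, made the other large group. Of 22 measured genes of these chaperones and of the unfolded protein response, 14 rose and 0 fell, with a median of 1.07 log2 (2.02% of all genes rose). Creld2, a secreted stress-induced factor, stood at 11.61, 10.93 and 11.36 in the fasted and at 14.74, 13.80 and 14.01 in the refed livers and rose by 2.71 ± 0.54 (adjusted p = 0.00386). Manf, a stress-induced secreted neurotrophic factor, stood at 10.01, 9.72 and 9.96 against 12.74, 12.45 and 11.99 and rose by 2.47 ± 0.46 (adjusted p = 0.00221). Hspa5, the lumenal Hsp70 known as BiP, stood at 13.56, 12.22 and 12.96 against 14.69, 14.74 and 14.63 and rose by 1.67 ± 0.40 (adjusted p = 0.015). Every refed liver was above every fasted one in all 3. Sdf2l1 rose by 2.59 ± 0.54 (adjusted p = 0.00558), Dnajb11, a co-chaperone of BiP, by 1.47 ± 0.27 (0.00187), Hsp90b1, the lumenal Hsp90, by 1.45 ± 0.34 (0.0133), Pdia6, a disulfide isomerase, by 1.05 ± 0.22 (0.00495) and Xbp1, a transcription factor of the response, by 1.0 ± 0.22 (0.00988).

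Without Fast_523 the list median was 1.1 and the number called 6 of 22. Dnajb11, Manf, Creld2, Sdf2l1, Calr and Dnajc3 kept their calls there, whereas Hspa5 (adjusted p = 0.171, and 0.063 or 0.097 without Refed_467 or Refed_473), Hsp90b1 (0.105), Pdia6 (0.0706), Xbp1 (0.0926) and Derl3 (0.16) did not. With slide as a block Hspa5 and Derl3 also lost their calls (adjusted p = 0.0557 and 0.0802). Here Fast_523 was the lowest of the fasted in Hspa5 and Derl3, the opposite of its place in the sterol genes. Without Refed_467, Fast_516, Refed_473, Fast_533 or Refed_472 the number called was 4, 9, 6, 12 or 14, and with slide as a block it was 10, with a median of 1.04. Within slide 187 the median was 0.917. Members that did not pass include Herpud1, at 12.30, 12.70 and 13.11 against 11.70, 12.50 and 12.71, and Sil1.

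The promoters of these genes were searched for the endoplasmic reticulum stress element, to which ATF6 with NF-Y binds, spelled CCAAT, 9 bases of any kind and CCACG, on both strands. The search covered windows from 250 bases before to 50 bases after the RefSeq start site (assembly GRCm38.p6). The element was in 39 of 32851 windows (0.119%). It was in the windows of 7 of the 12 risen genes that had one and of 9 of the 19 measured genes that had one, and these 19 include Canx and Syvn1, which hold it and did not pass. CCAAT alone, which the element contains, was in 37.4% of all windows and in 11 of those 12. A match in letters shows neither binding nor a cause. The 7 stretches are shown 5′ to 3′ on the strand of the gene because they are what these risen genes share in sequence. Capitals mark the paired ends of the element, and it reads CGTGG and ATTGG where it lies on the other strand.
Creld2 (chr15:88819490-88819568, + strand): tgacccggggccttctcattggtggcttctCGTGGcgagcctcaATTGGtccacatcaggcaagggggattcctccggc
Hspa5 (chr2:34771995-34772073, + strand): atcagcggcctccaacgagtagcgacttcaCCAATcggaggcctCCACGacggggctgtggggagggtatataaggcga
Derl3 (chr10:75893212-75893290, + strand): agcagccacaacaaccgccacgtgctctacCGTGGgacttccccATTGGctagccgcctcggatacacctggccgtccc
Pdia6 (chr12:17266461-17266539, + strand): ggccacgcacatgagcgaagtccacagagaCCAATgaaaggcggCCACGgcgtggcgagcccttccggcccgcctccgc
Dnajc3 (chr14:118937797-118937875, + strand): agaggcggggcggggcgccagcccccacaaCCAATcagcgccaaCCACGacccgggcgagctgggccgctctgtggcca
Calr (chr8:84847045-84847123, - strand): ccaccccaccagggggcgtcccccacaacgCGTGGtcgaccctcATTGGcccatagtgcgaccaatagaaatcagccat
Hsp90b1 (chr10:86705503-86705686, - strand): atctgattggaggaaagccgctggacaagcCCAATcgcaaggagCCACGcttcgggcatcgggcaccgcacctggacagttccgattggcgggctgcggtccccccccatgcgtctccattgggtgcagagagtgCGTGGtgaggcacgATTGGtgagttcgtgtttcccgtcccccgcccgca
The Hsp90b1 stretch holds the element 2 times, once on each strand. All 7 lie before the start site, and the first matching base lies from 65 (Hspa5) to 212 bases (Hsp90b1) before it. The 7 genes rose by between 1.03 (Dnajc3) and 3.0 log2 (Derl3). Without Fast_523 only Creld2, Calr and Dnajc3 among them kept their calls. Derl3 also lost its call without Fast_516, Refed_467 or Refed_473 (adjusted p = 0.058, 0.125 and 0.155).

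Among cholesterol synthesis genes, 10 of the 13 risen had a window. A sterol regulatory element spelled TCACNCCAC was in 1.24% of all windows and in 1 of the 10, that of Hmgcs1, which is shown as the single match with the element in capitals.
Hmgcs1 (chr13:119690184-119690252, + strand): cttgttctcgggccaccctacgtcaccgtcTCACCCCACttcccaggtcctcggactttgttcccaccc
That the other 9 lack these letters says nothing about SREBP binding, which other spellings allow.

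**Figure D4:**
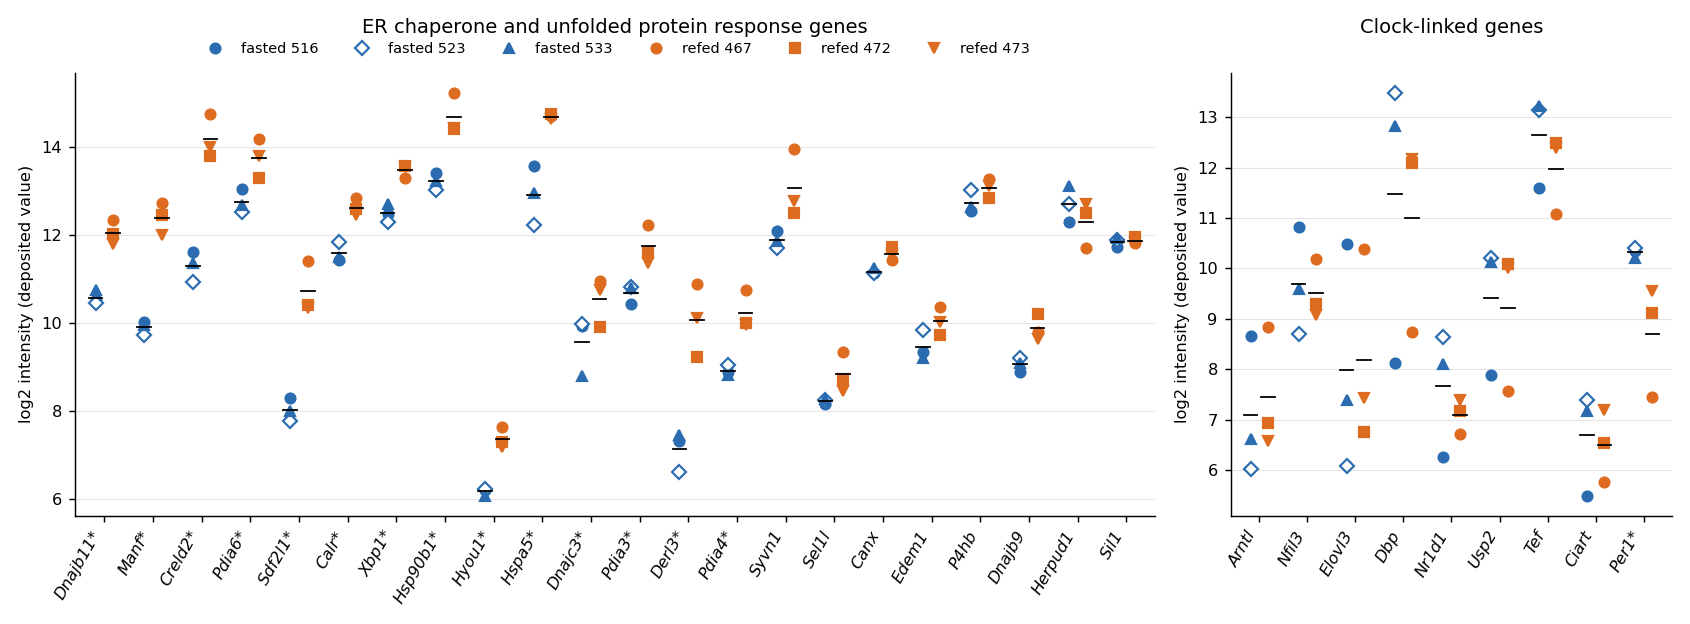
Deposited log2 intensity in each fasted (blue) and refed (orange) IR/FoxO1 floxed liver for the 22 measured chaperone and unfolded protein response genes (left) and for 9 clock-linked genes (right), with group means as black bars and asterisks for an adjusted p under 0.05. On the left most refed points lie above the fasted points. On the right Fast_516 and Refed_467 (filled circles) part from the other 4 livers in genes such as Dbp, at 8.12 and 8.74 against 12.09 to 13.48. Per1 does not divide in this way, with all fasted livers between 10.21 and 10.42.

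Of 30 measured genes of protein entry into the endoplasmic reticulum and of secretory transport 13 rose and 0 fell, with a median of 0.479 (2.02% of all genes rose). Sec23b, a coat protein of vesicles that leave it, stood at 9.77, 9.92 and 9.81 against 11.63, 11.37 and 11.10 and rose by 1.41 ± 0.22 (adjusted p = 0.000464). Ostc, a subunit of the oligosaccharyltransferase that glycosylates new proteins, stood at 9.39, 9.55 and 9.41 against 11.12, 10.73 and 10.27 and rose by 1.22 ± 0.20 (adjusted p = 0.000662). Ssr1, of the translocon-associated complex, and Ddost, another transferase subunit, rose by 0.90 ± 0.16 (adjusted p = 0.00159) and 1.16 ± 0.21 (0.00196). These 4 did not overlap and kept their calls whichever mouse was left out. Sec61a1, Sec61b and Sec61g, the channel subunits, rose by 0.63 ± 0.15 (adjusted p = 0.0126), 0.64 ± 0.16 (0.0256) and 0.86 ± 0.20 (0.0133). Without Fast_523, 9 of the 30 rose with a median of 0.516, and without Refed_467, the highest refed liver in 26 of the 30, 5 rose.

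Ribosome biogenesis genes showed smaller rises, 8 of 25 measured with 0 falling and a median of 0.462 (2.02% of all genes rose). Bop1 and Wdr12, partners in the complex that matures the large subunit, rose by 0.74 ± 0.13 (adjusted p = 0.00167) and 0.74 ± 0.14 (0.00221). Bop1 stood at 9.36, 9.53 and 9.58 in the fasted and at 10.46, 10.26 and 10.12 in the refed livers. Wdr12 stood at 6.56, 6.64 and 6.72 against 7.46, 7.18 and 7.52, and neither gene overlapped. Nop56 and Nop58, core proteins of small nucleolar particles, rose by 0.81 ± 0.20 (adjusted p = 0.0183) and 0.69 ± 0.18 (0.0278), but not without Fast_523 (0.141 and 0.173), nor Nop58 with slide as a block (0.0634). The number called was 4 without Fast_523 and from 3 (without Refed_472) to 7 (without Refed_467) otherwise. Of 11 cytosolic heat shock genes, all had a positive difference with a median of 0.573, against -0.0026 for all genes. Of them 1 rose (2.02% of all genes rose), Hsph1, an Hsp110 chaperone, by 1.22 ± 0.34 (adjusted p = 0.0433). Its call was lost whichever mouse was left out (0.0732 to 0.217) and with slide as a block (0.147).

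Several of the largest rises lay in genes that male mouse liver expresses strongly. Nudt7, a peroxisomal coenzyme A hydrolase, stood at 10.77, 11.56 and 11.52 against 14.50, 13.80 and 13.48 and rose by 2.86 ± 0.31 (adjusted p = 7.34e-06), a 7.24-fold rise. Cyp7b1, an oxysterol hydroxylase of the alternative bile acid route, stood at 11.55, 10.47 and 10.03 against 14.04, 13.01 and 12.37 and rose by 2.76 ± 0.48 (adjusted p = 0.00133). Hsd3b5, a male-specific steroid dehydrogenase, stood at 7.70, 8.67 and 8.29 against 12.48, 10.41 and 10.61 and rose by 3.27 ± 0.81 (adjusted p = 0.0196), a call lost without Fast_516, Fast_533 or Refed_467 (0.0815, 0.0684 and 0.181). All 3 were without overlap, with Refed_467 the highest. Igfals, which carries insulin-like growth factors in blood, rose by 1.31 ± 0.37 (adjusted p = 0.0441, from 0.058 to 0.204 with 1 mouse left out and 0.058 with slide as a block). These made 4 of 19 measured male-biased or growth hormone linked genes, or 3 without Fast_523 (2.02% and 1.07% of all genes rose), with a median of 0.984. Within slide 187, which leaves out Refed_467 and Refed_472, the list's median was 0.542, and it was 0.158 against Fast_516 alone. Mup20, a major urinary protein, was at 15.26, 14.34 and 14.71 in the fasted livers and at 15.92, 15.92 and 15.89, the top of the range, in all 3 refed ones, so that its difference is a lower bound. Elovl3 followed the clock division, at 10.48, 6.08 and 7.38 against 10.38, 6.76 and 7.43.

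Of 15 cytochrome genes of drug metabolism 1 changed, with and without Fast_523 (3.54% and 2.05% of all genes changed). Cyp2c70, the enzyme that makes muricholic acids in mice, stood at 11.06, 10.22 and 11.64 against 14.46, 13.76 and 13.39 and rose by 3.17 ± 0.50 (adjusted p = 0.000614). Of 17 bile acid and sterol export genes, Cyp7b1 rose and Abcg5, a subunit of the canalicular sterol exporter, fell by 1.04 ± 0.26 (adjusted p = 0.0244), a call lost without Fast_523, Fast_533, Refed_467 or Refed_473 (0.0655 to 0.147) and with slide as a block (0.0672). Cyp7a1, the rate-limiting enzyme of bile acid synthesis, was at 11.67, 11.55 and 11.60 against 11.00, 10.82 and 10.60, without overlap, and its fitted difference of -0.58 ± 0.60 did not pass (adjusted p = 0.793). That SE rests on the spread in all groups fitted. The SD was 0.06 in these fasted livers and 0.99 in refed LIRKO livers. Of 19 clock genes Per1 alone passed (0 without Fast_523), and of 20 immediate early genes 0 did, with medians of -0.195 and -0.0169.

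Outside the lists, the largest changes included genes of mixed function. Serpina4-ps1, a serpin pseudogene, stood at 8.41, 8.71 and 8.92 against 13.54, 11.83 and 11.54 and rose by 3.75 ± 0.85 (adjusted p = 0.0113, and 0.0636 or 0.12 without Fast_523 or Refed_467). Osgin1, an oxidative stress-induced growth inhibitor, stood at 9.26, 10.91 and 10.74 against 13.37, 12.69 and 12.83 and rose by 2.90 ± 0.46 (adjusted p = 0.000662). Neither gene overlapped between the groups, which was a condition for naming the largest changes. Mfsd2a, a lysophospholipid transporter induced by fasting, stood at 11.96, 11.89 and 11.29 against 6.78, 9.17 and 9.29 and fell by 3.33 ± 0.61 (adjusted p = 0.00194). Rasgef1b, an exchange factor for Rap, stood at 11.31, 10.50 and 9.80 against 8.13, 8.29 and 8.95 and fell by 2.32 ± 0.34 (adjusted p = 0.000274). Rgs16, a regulator of G protein signalling, fell by 2.75 ± 0.78 (adjusted p = 0.0478), with Refed_467 lowest at 6.35, and lost its call without any mouse but Refed_472 (0.0778 to 0.341) and with slide as a block (0.13).

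Markers of cell types served to check the tissue. The 8 hepatocyte markers averaged from 15.0 to 15.3 log2 in the livers, and none of the 12 marker lists had a member that changed, with or without Fast_523. Alb lay between 15.40 and 15.95 and Serpina1c between 15.62 and 15.92, near the top of the measured range. A change in such markers could hardly be seen. The 3 measured erythroid genes had a median difference of 1.09 (1.44 without Fast_523). Hba-a1, an alpha globin, was at 13.12, 13.75 and 12.92 in the fasted and at 15.14, 14.12 and 13.56 in the refed livers, which overlap (adjusted p = 0.281). In RNA from whole liver, fewer cells of a type and less RNA per cell cannot be told apart.

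The response was then set beside that of the other genotypes, each measured against its own fasted mice. In IR floxed mice 3.58% of genes changed, in LIRFKO 1.79% and in LIRKO 1.85%. Tested as a difference between responses, 1 gene separated IR/FoxO1 floxed from IR floxed mice, 1 from LIRFKO and 10 from LIRKO (0.00445%, 0.00445% and 0.0445% of genes), and 920, 910 and 1747 had an unadjusted p under 0.05. If no response differed, a share of about 0.05 of the 22479 genes would have such a p. The counts of 920 and 910 lie below that share, and 1747 lies above it. The count of 10 called against LIRKO became 6 without Fast_516, 2 without Fast_533 or Refed_472 and 3 without IR.KO_Fast_505 or IR.KO_Refed_564, and it became 19 without Fast_523 and 20 without IR.KO_Fast_550. The IR floxed and LIRKO mice lack the floxed Foxo1 allele of the IR/FoxO1 floxed mice, so that against LIRKO that allele and the receptor deletion differ together.

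Nfe2, a transcription factor of blood cell development, separated the 2 floxed lines. It stood at 5.49, 6.84 and 5.83 log2 in the fasted and at 7.32, 8.61 and 8.49 in the refed IR/FoxO1 floxed livers, a rise of 2.01 ± 0.25 (adjusted p = 2.87e-05). In IR floxed mice it differed by 0.13 ± 0.22, with refed livers between 5.63 and 6.14, and the difference between the responses was 1.87 ± 0.31 (adjusted p = 0.0401, and 0.00159 without Fast_523). These SEs rest on a spread shared by all groups fitted. The SD of Nfe2 was 0.70 in fasted IR/FoxO1 floxed livers but 0.043 in fasted IR floxed livers, so the SE may be too small for this line. No gene separated the lines with slide as a block, nor in most fits with 1 library of either line left out, the exceptions being those without Fast_523, Refed_467 or IR.fl_Refed_566. In LIRFKO mice, which carry both floxed alleles, Nfe2 had a rise of 1.68 ± 0.23 (adjusted p = 0.000333), from between 5.59 and 6.21 to between 7.19 and 7.73. Hba-a1 differed by 1.14 ± 0.51 in IR/FoxO1 floxed, -1.13 ± 0.44 in IR floxed and 0.03 ± 0.47 in LIRFKO mice, and the part of blood cells in the Nfe2 difference was not tested.

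Clic5, a chloride intracellular channel protein, separated the floxed line from its own double knockout. It stood at 5.65, 5.61 and 5.66 in the fasted and at 6.88, 7.10 and 6.68 in the refed livers, near the lower end of the array's range throughout, and rose by 1.29 ± 0.13 (adjusted p = 4.1e-06). In LIRFKO the difference was -0.01 ± 0.13 and all livers lay between 5.44 and 5.72. The Clic5 responses differed by 1.30 ± 0.19 (adjusted p = 0.00522, and 0.0388 without Fast_523), although no gene passed with slide as a block, and from that of LIRKO by 1.17 ± 0.18 (0.0206). In IR floxed mice Clic5 had a rise of 0.58 ± 0.12 (adjusted p = 0.00484).

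Pdk4 was the listed gene that most clearly parted from LIRKO. It did not pass in IR/FoxO1 floxed mice, whereas in LIRKO it fell by 3.31 ± 0.35 (adjusted p = 2.07e-06), and the responses differed by 2.75 ± 0.47 (adjusted p = 0.0289). The LIRKO fall began from a higher level, between 10.77 and 11.51 in the fasted livers, and ended between 7.33 and 8.15. Fasted IR/FoxO1 floxed livers lay between 6.52 and 7.80 in Pdk4. Flvcr2, a heme and choline transporter, stood at 8.66, 8.29 and 8.24 against 6.84, 6.95 and 6.89 and fell by 1.52 ± 0.17 (adjusted p = 1.19e-05), while it differed by -0.15 ± 0.17 in LIRKO, and the responses differed by -1.37 ± 0.24 (0.0289). Fbxo21, a ubiquitin ligase subunit, fell by 1.12 ± 0.22 (adjusted p = 0.00287). In LIRKO its difference was upward, at 0.50 ± 0.22, and the responses differed by -1.62 ± 0.30 (0.034). Wdr77, a partner of the arginine methyltransferase PRMT5, rose by 0.98 ± 0.12 (adjusted p = 3.98e-05) against 0.04 ± 0.12 in LIRKO, a difference of 0.94 ± 0.17 (0.034). IR floxed mice moved the same way as IR/FoxO1 floxed mice in Flvcr2, Fbxo21 and Wdr77. Their group means went from 8.46 fasted to 6.87 refed in Flvcr2, from 12.05 to 10.63 in Fbxo21 and from 8.10 to 8.65 in Wdr77.

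For the genes that led the groups above, no difference between genotypes passed. Igfbp1 differed on refeeding by -3.60 ± 0.69 in IR floxed, -1.5 ± 0.73 in LIRFKO and -0.25 ± 0.78 in LIRKO mice, and the difference from LIRKO of -3.35 ± 1.07 had an adjusted p of 0.337. Mvd differed by 1.40 ± 0.43, 2.08 ± 0.45 and -0.03 ± 0.48 in the same order, and its difference from LIRKO of 2.86 ± 0.67 had an adjusted p of 0.0884. Trib3 came nearest, with a difference from LIRKO of -2.65 ± 0.52 (adjusted p = 0.0508). For Hspa5 the difference from IR floxed mice was 0.04 ± 0.50 (adjusted p = 1), which does not show that the responses were alike. Counted over lists and not tested, 13 cholesterol synthesis genes rose here, 1 in IR floxed, 9 in LIRFKO and 0 in LIRKO mice, with medians of 1.78, 0.68, 1.67 and -0.17. Without Fast_523 the first of these counts was 14. Chaperone genes that rose numbered 14, 17, 6 and 0 (with 1 fall in LIRKO), with medians of 1.07, 1.11, 0.82 and 0.46. Without Fast_523 the first was 6, the same number as in LIRFKO. The share of all genes that rose was 2.02% here and 2.11%, 0.988% and 0.983% in the others, and 0.867% fell in LIRKO.

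**Figure D5:**
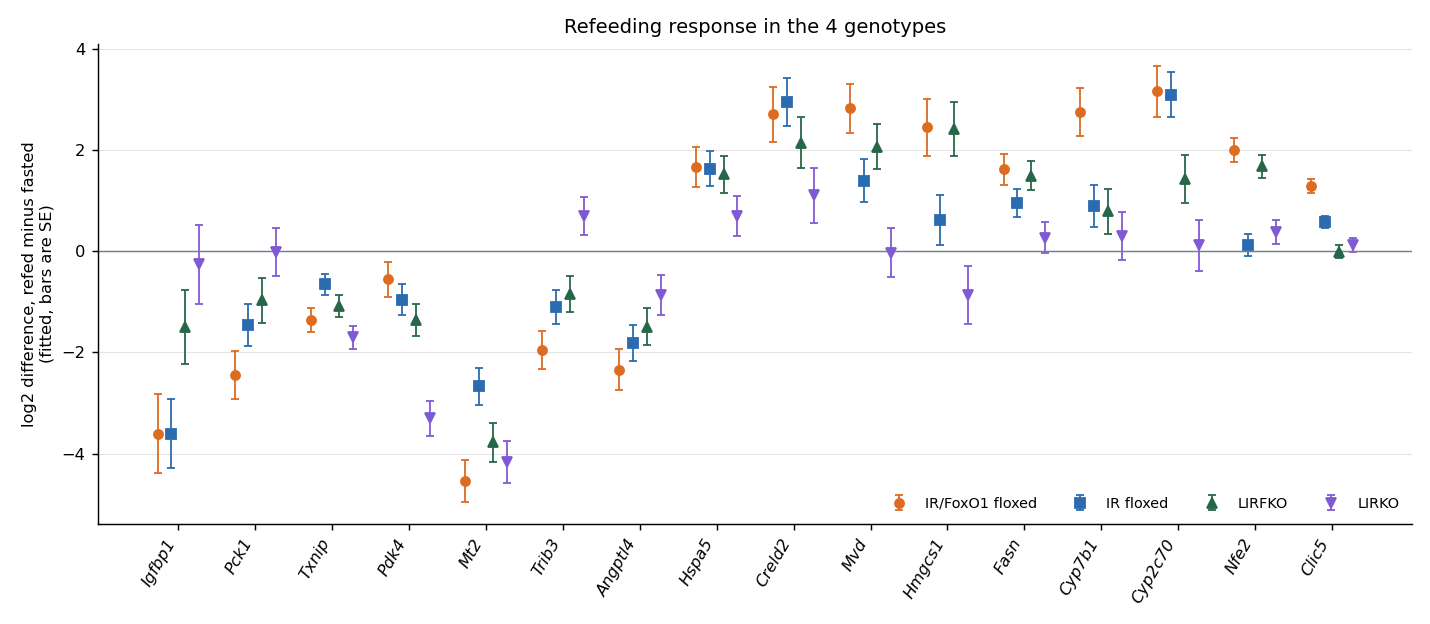
Fitted log2 difference between refed and fasted liver, with SE bars, for 16 genes in IR/FoxO1 floxed (3 refed, 3 fasted), IR floxed (4 and 4), LIRFKO (4 and 3) and LIRKO (4 and 3) mice. Nfe2 rises in IR/FoxO1 floxed (2.01) and LIRFKO mice (1.68), Clic5 is near 0 in LIRFKO (-0.01), and Pdk4 falls furthest in LIRKO (-3.31). Igfbp1 in LIRKO was at the top of the measured range in both feeding states, so its difference there may be understated.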

How the data were processed

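The values are the log2 intensities that the authors deposited for each channel of two-colour Agilent arrays. R 3.1.0 and limma 3.20.1 are named, without their role, per the submitters' processing notes. How background was corrected and arrays were normalized is not given in the sources used here. Of 45220 features, 33026 carry 1 gene symbol, and the probe with the highest mean over all 38 columns stood for each of 22479 genes. Column medians lay between 5.72 and 5.78. A linear model over 37 samples in 11 groups, with dye as a term and array as a random block (correlation 0.358), was fitted with limma 3.58.1 in R 4.3.3, with Benjamini-Hochberg adjusted p-values across the genes. The model was tested on simulated data with normal noise of equal spread in every group. That test cannot show how the model behaves where groups differ in spread or values lie at the top of the range. The sample IRF.KO_GTT_724 was assigned to no group and left out. Genes were named as the 12 largest called rises and falls, the 4 of each list with the smallest p, and the 6 leading genes of each difference between genotypes, and other listed genes are given as examples. Members and lists were chosen with earlier results of these data known. Nothing in the labels says more of how the replicate mice relate, so p-values measure the spread between these samples. For each gene the model estimated 1 spread from all 11 groups, although groups differed in spread in genes such as Nfe2 and Cyp7a1. The alternatives were 1 library left out, slide as a block, no dye term, no array block, quantile normalization, the mean of all probes, genes above the median level, a variance trend, and the 6 libraries alone. Slide as a block without Fast_523, and list counts with each library left out, were added after seeing the data. The number of arrays limits the precision.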

Additional observations from a re-analysis of the deposited data

Results flagged for a closer look

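The following genes stand out because the difference between genotypes in their refeeding response passed its own limma test (adjusted p under 0.05 over all genes). Against IR floxed mice this was Nfe2, whose response was 1.87 log2 higher (adjusted p = 0.0401). Against LIRFKO it was Clic5, by 1.30 (adjusted p = 0.00522).

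Against LIRKO 10 genes passed. The response of IR/FoxO1 floxed mice minus that of LIRKO was positive in Clic5 (1.17), Pdk4 (2.75), Wdr77 (0.94), Nat8f5 (2.16) and Apol10a (0.76 log2). Pdk4 did not pass in IR/FoxO1 floxed mice and fell in LIRKO, from a mean of 11.06 fasted to 7.66 refed. For Flvcr2 the difference was -1.37, for Fbxo21 -1.62, for Gnpda1 -1.13, for Zfand1 -0.98 and for Epdr1 -0.76. Their adjusted p ranged from 0.0206 (Clic5) to 0.0442 (Zfand1 and Epdr1). Group means of Flvcr2, Fbxo21 and Wdr77 moved the same way in IR floxed mice as in IR/FoxO1 floxed mice. Without Fast_523, Gnpda1, Nat8f5 and Epdr1 no longer passed (adjusted p = 0.0544, 0.0571 and 0.0608).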

How the results depend on the processing

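The 72 called genes among the 110 named kept their direction under each of 15 alternatives that gave a value, and 21 kept their call. Clic5 had no value over genes above the median level, since its own level is lower. Among the others Foxo1 reversed, from 0.42 to -1.01 log2 without Fast_523, and ranged from -1.01 to 1.11 with 1 library left out. Leaving out 1 of the 6 libraries gave between 337 and 484 called genes (795 in the full fit), between 188 and 273 that rose (454) and between 149 and 220 that fell (341). Without the dye term there were 504 (286 rose, 218 fell), without the array block 492 (294 and 198), in the 6 libraries alone 334 (183 and 151), and with slide as a block without Fast_523, 304 (161 and 143). Fewer samples enter the fits with a library left out and that of the 6 libraries, and for the others the cause was not tested.

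The difference from IR floxed mice, 1 gene, ranged from 0 to 5 with 1 library left out, was 0 with slide as a block, without the dye term or without the array block, and 2 over genes above the median level. That from LIRFKO, 1 gene, ranged from 1 to 4, and was 0 with slide as a block (also without Fast_523) and over genes above the median level, a setting that leaves out Clic5, the gene concerned. That from LIRKO, 10 genes, ranged from 2 to 20, and was 4 with slide as a block, 5 without the dye term, 1 without the array block, 18 with a variance trend and 0 with slide as a block without Fast_523. Values near 16 log2, the highest on the arrays, can understate a difference. No paired analysis was possible because the mouse numbers of the fasted and refed groups are not shared.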

Other observations

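Genes of the exocrine pancreas were high in 1 library. Cpa1, a carboxypeptidase, stood at 7.60 log2 in Fast_533 and between 5.42 and 5.54 in the other livers, and the mean of the 6 measured acinar genes was 7.94 there against 6.42 to 6.70 elsewhere. Moxd1, a monooxygenase-like gene, stood at 8.67 in Refed_467 and between 5.35 and 5.42 in the other 5 livers.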
